A study of Mus musculus with 24 samples.

Results

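Expression was examined for 33 skeletal muscle differentiation genes of the mouse embryo, chosen by name for their roles: the transcription factors that specify and differentiate muscle cells, a fusion protein, proteins of the contractile apparatus and its calcium supply, and components of the nerve-muscle synapse. All 33 were among the 34745 genes of the expression table, 32 under the symbols listed and Mymk under its older symbol Tmem8c. The positions of 33 of 33 in the table overlapped the RefSeq gene of the same name on GRCm38. After the filter on low counts, 32 were tested, and Myf6 was not.

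RNA sequencing was performed on whole embryos at embryonic day 13.5 on a hybrid 129/DBA background. The 6 M−Z+ embryos were Zfp57 −/+ and came from mothers lacking Zfp57, so they lacked the maternal product and carried 1 functional allele of their own. The 6 M−Z− embryos were Zfp57 −/− and lacked the maternal and the zygotic product. M−Z+ is thus not a wild-type group, and no RNA-seq library of embryos with maternal Zfp57 was used here. Sex and litter are not in the labels, and nothing in them says that the embryos came from separate litters, so p-values measure the spread between these embryos. Total counts ranged from 12347383 to 19216288 in M−Z+ and from 12005145 to 14617373 in M−Z− libraries.

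Muscle forms when precursors marked by Pax3 and Pax7 activate the myogenic factors Myf5 and Myod1, leave the cell cycle under Myog, and fuse into fibres that assemble sarcomeres. Zfp57 encodes a zinc finger protein that maintains methylation imprints, and the imprinted region between Dlk1 and Dio3 is among its targets. Dlk1, a transmembrane relative of Notch ligands, and Rtl1, a retrotransposon-derived gene of the same region, are both known to act in fetal muscle, so the comparison asks whether muscle genes differ where both are reduced. A whole embryo mixes many tissues, and fewer muscle cells cannot be told apart from less RNA per muscle cell.

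Zfp57 itself did not separate the genotypes. Its normalised level in CPM, the counts of a gene relative to the TMM-scaled total of its library, was lowest at 19.1, with a median of 23.7 and a highest value of 40.8, in M−Z+ embryos, and 17.8, 26.5 and 27.8 in M−Z− embryos. Its log2 fold change was −0.15 ± 0.18 (SE, n = 6 per group, edgeR adjusted p = 0.828), where a fold change throughout is M−Z− over M−Z+. Counts over the whole gene do not resolve the deleted part, so this value does not check the labels. Of 12 imprinted genes listed, 7 had groups that did not overlap, against 0.574% of all genes tested.

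Dlk1 ranged from 300 CPM through a median of 424 to 541 CPM in M−Z+ embryos and from 60.5 through 82.7 to 99.5 CPM in M−Z− embryos. No value of one group reached those of the other, and Dlk1 fell, with a log2 fold change of −2.42 ± 0.16 (edgeR adjusted p = 5.44e-06). Rtl1 ranged from 10.7 through 13.6 to 17.2 CPM in M−Z+ embryos, a total of 1256 counts, whereas the 6 M−Z− embryos held 4 counts together, 0 to 2 in each. At such levels the fitted log2 value, −7.87, varies with the prior count (edgeR adjusted p = 1.58e-08). The same 7 were called, against 0.0811% of all genes tested. Dlk1, Rtl1 and the deiodinase gene Dio3 (−1.80 ± 0.18) fell. The noncoding RNA gene Rian (0.93 ± 0.11), Peg3 (1.21 ± 0.18), Plagl1 (1.27 ± 0.12) and Mest (0.67 ± 0.11) rose.

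Some libraries stood apart in a way that touches muscle genes. For each library log2 CPM of the tested genes was regressed on the log2 of gene length. Gene length here is the one implied by counts and FPKM, which for some genes exceeds the span of the gene. This length slope was highest in M−Z+ embryo 6 at 0.638, M−Z− embryo 5 at 0.630 and M−Z− embryo 6 at 0.640. It was 0.409 to 0.540 in the other 9. The 8 longest tested members, among them Neb, Ryr1, Myh3 and Myh8, lay on average 0.25, 0.44 and 0.47 log2 units above their mean over 12 embryos in those 3 libraries, and the 8 shortest, among them Myog, Acta1 and Ckm, lay at −0.56, −0.29 and −0.32. Of the 3 libraries 1 is M−Z+ and 2 are M−Z−. The part of this property in the results was not tested, and values with the slope as a covariate and without the 3 libraries are given for many members.

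**Figure D1:**
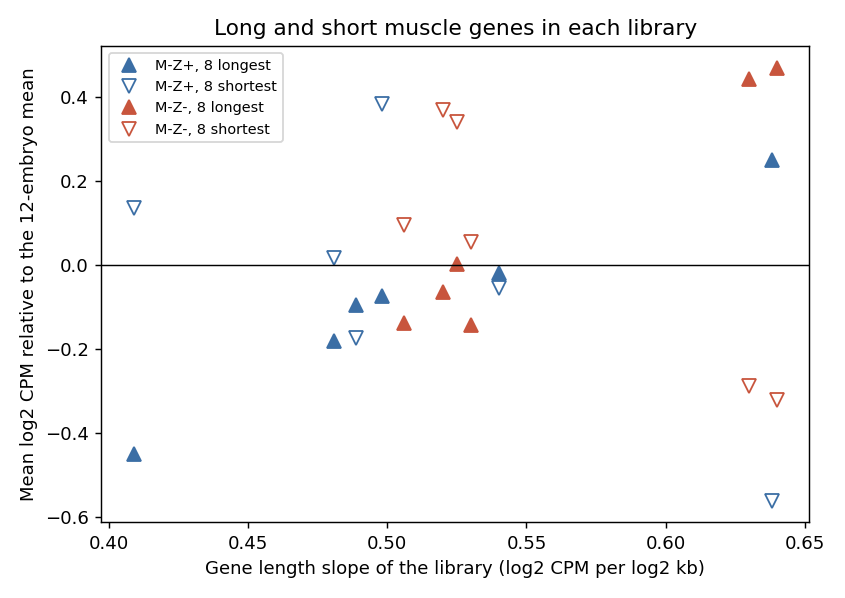
Mean log2 CPM of the 8 longest (filled) and 8 shortest (open) tested muscle genes in each library, relative to their mean over 12 embryos, against the library's gene length slope. The 3 libraries at slopes of 0.630 to 0.640 hold the highest values of the long genes and low values of the short ones.

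No muscle gene was called. The edgeR test over 16026 genes called 13, or 0.0811% of genes tested, by requiring a log2 fold change beyond 0.5 together with an adjusted p under 0.05. Of the 32 tested members edgeR called 0 and DESeq2 also called 0, and edgeR adjusted p-values of the members ran from 0.744 to 0.998. At an unadjusted p below 0.05, which 6.7% of all genes reached, 2 members lay: Myf5 and Myh8, both higher in M−Z− embryos. The groups overlapped for every tested member, while 0.574% of all genes had groups that did not overlap. The median log2 fold change of the members was 0.036, against −0.00725 over all genes; 18 lay above 0 and 14 below, and 48.3% of all genes lay above 0.

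A missing call does not show equal levels, so the intervals were read. For 22 of the 32 members the 95% interval of the log2 fold change lay within ±0.5, and 62.6% of all genes tested had such intervals. The exceptions were Pax3, Myf5, Myh8, Mylpf, Tnni2, Tnnc2, Neb, Ckm, Ryr1 and Musk. For 28 members the interval of the main fit lay above −0.5, so that a fall of that size was outside it. The other 4 were Pax3, Mylpf, Tnni2 and Tnnc2. No share of all genes is given for this count. The intervals are not adjusted for the number of genes and do not take in the length slope.

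The fold changes of the members moved with the length slope. Those near 0 need only a small shift to move by 1.5 times, and no share of all genes is given for such moves. As a covariate it changed 28 of 32 by over 1.5 times or in sign, and their median became 0.09. At an unadjusted p below 0.05 there were then 6 members, or 18.8%, against 9.84% of all genes: Pax3, which was lower in M−Z− embryos, and Acta1, Tnnt2, Des, Ckm and Chrna1, which were higher. None was called, and the lowest adjusted p was 0.0797. Without the 3 libraries 19 of 32 moved as much, the median was 0.0024, and 0 members lay below an unadjusted p of 0.05, against 7.84% of all genes. Leaving out 1 embryo at a time moved 28 of 32 as much in at least 1 case and changed the sign of 8.

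**Figure D2:**
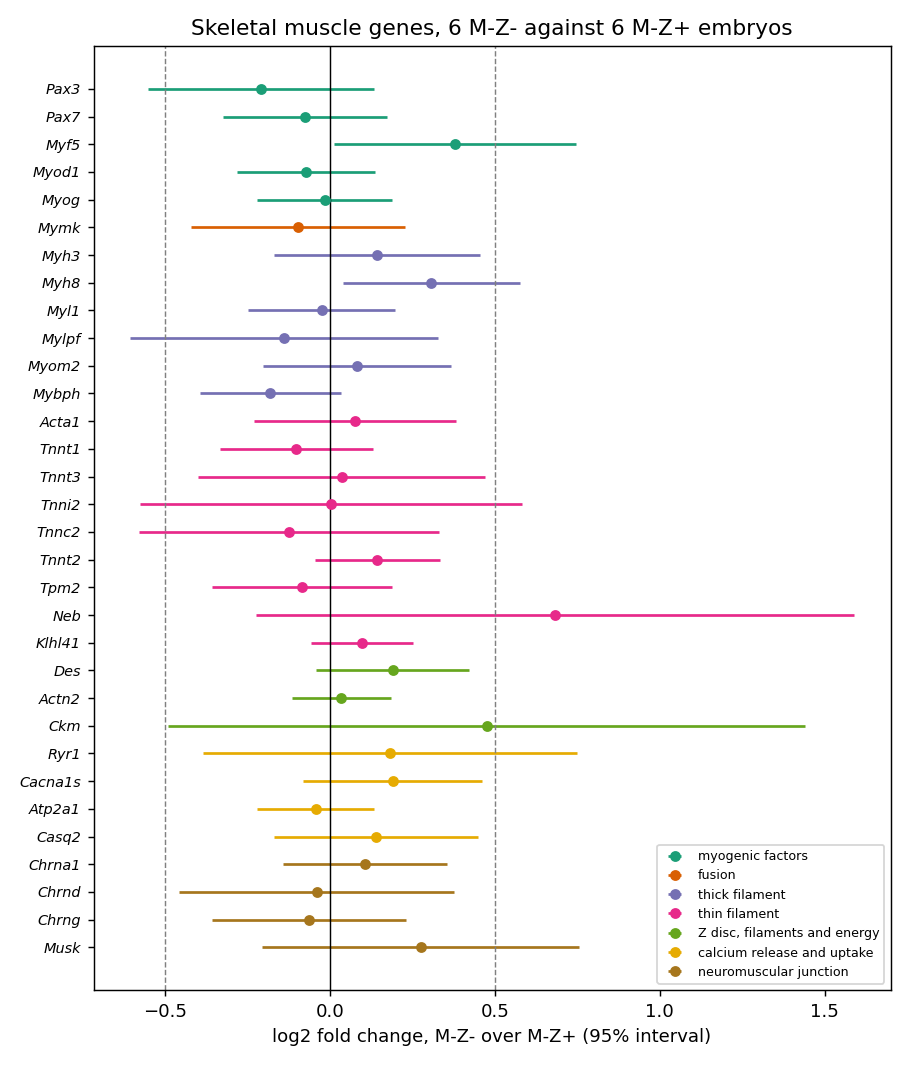
Log2 fold change (M−Z− over M−Z+, 6 embryos each) of the 32 tested muscle genes with 95% intervals, coloured by role; dashed lines mark ±0.5. Intervals are widest for Neb (−0.22 to 1.59) and Ckm (−0.49 to 1.44), and only those of Myf5 and Myh8 lie above 0.

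Together the 33 genes made up 0.183% to 0.267% of the summed TPM, a level per gene length, in M−Z+ embryos and 0.202% to 0.255% in M−Z− embryos, and the ranges overlapped. The highest mean over 12 embryos was that of skeletal alpha-actin, Acta1, at 432 ± 71.6 TPM (SD, n = 12), followed by Mylpf at 314 ± 81.3, Myog at 226 ± 17.8 and Tnnc2 at 188 ± 46.4 TPM. The spreads of Acta1 and Mylpf overlap, as do those of Mylpf, Myog and Tnnc2, so the order of neighbours is not firm. At the other end stood Chrnd at 3.0 ± 0.657, Musk at 2.4 ± 0.75 and Myf6 at 2.2 ± 1.23 TPM. TPM divides by the length implied by counts and FPKM, so the order also depends on that length. In CPM, Myh3 stood above Acta1, with means of 290 against 171 in M−Z+ and 320 against 180 in M−Z− embryos. The defining markers of skeletal muscle, Myod1, Myog, Myh3, Acta1 and Ckm, had counts in every embryo.

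Values of the precursor and determination factors overlapped between the genotypes. Pax7, which marks muscle precursors (chr4:139737062-139833528, mm10), ranged from 16.7 through 20.2 to 24.2 CPM in M−Z+ and from 15 through 19.5 to 21.9 CPM in M−Z− embryos. The highest embryo was M−Z+ and the lowest M−Z−, with the remaining values interleaved, and the log2 fold change was −0.07 ± 0.12 (edgeR adjusted p = 0.865), turning to 0.05 with 2 surrogate variables. Pax3, its paralogue in migrating precursors, averaged 14.7 ± 3.28 and 12.7 ± 2.21 CPM (SD, n = 6) and had a log2 fold change of −0.21 ± 0.16 (95% interval −0.55 to 0.13), −0.35 with the slope as a covariate and −0.29 without the 3 libraries.

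Myf5, the earliest myogenic factor, gave one of the lowest unadjusted p-values. It ranged from 3.74 through 4.44 to 6.17 CPM in M−Z+ and from 4.34 through 6.42 to 7.64 CPM in M−Z− embryos, so that 4 M−Z− embryos lay above the highest M−Z+ value, 1 of them narrowly. For Myf5 the log2 fold change was 0.38 ± 0.17 (95% interval 0.01 to 0.75, edgeR adjusted p = 0.744). It was 0.36 with the slope as a covariate and 0.37 without the 3 libraries, with unadjusted p above 0.05 in both, and 0.22 with 2 surrogate variables. Myod1, which commits cells to muscle (chr7:46376474-46379092), ranged from 28.1 through 34.3 to 39.9 CPM and from 28.6 through 32.5 to 36.7 CPM. The M−Z− values lay within the M−Z+ range, with a log2 fold change of −0.07 ± 0.10 (adjusted p = 0.842), 0.05 with 2 surrogate variables and 0.0043 with the slope as a covariate.

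Myog, the factor of terminal differentiation (chr1:134289989-134292548), ranged from 76.6 through 97.0 to 110 CPM in M−Z+ and from 80.4 through 98.9 to 108 CPM in M−Z− embryos. All M−Z− values lay inside the M−Z+ range, and the lowest values of both groups came from the 3 libraries of the highest length slope. The log2 fold change was −0.02 ± 0.10 (95% interval −0.22 to 0.19, edgeR adjusted p = 0.968). It turned to 0.10 with the slope as a covariate, 0.05 with 2 surrogate variables and 0.01 without the 3 libraries. Myf6, the late factor of this family, had 6 to 27 counts in each library and a highest value of 1.75 CPM, too few for the test.

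Mymk, the membrane protein needed for myoblast fusion (chr2:27061636-27072179), ranged from 12.8 through 18.8 to 22.4 CPM in M−Z+ and from 14.1 through 17.0 to 20.9 CPM in M−Z− embryos. Values of the M−Z− group fell into 3 near 14 and 3 near 20 CPM, all within the M−Z+ range. For Mymk the log2 fold change was −0.10 ± 0.15 (edgeR adjusted p = 0.868), −0.03 without M−Z+ embryo 4 and −0.19 without M−Z+ embryo 6. It turned to 0.09 with the slope as a covariate and to 0.05 with 2 surrogate variables.

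Thick filament genes encode the myosins and their partners. Myh3, the embryonic myosin heavy chain (chr11:67078300-67102291), ranged from 249 through 290 to 346 CPM in M−Z+ and from 255 through 284 to 430 CPM in M−Z− embryos. The 3 highest values, 346, 412 and 430 CPM, belonged to the 3 libraries of the highest length slope. The log2 fold change of 0.14 ± 0.15 (95% interval −0.17 to 0.46, edgeR adjusted p = 0.790) became −0.05 with the slope as a covariate and −0.05 without those libraries.

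Myh8, the perinatal heavy chain, had the lowest unadjusted p of the members. It ranged from 56.6 through 61.9 to 78.4 CPM in M−Z+ and from 60.4 through 78.4 to 99.0 CPM in M−Z− embryos, and 3 M−Z− embryos lay above every M−Z+ value, among them both M−Z− libraries of the highest slope. The log2 fold change was 0.31 ± 0.13 (95% interval 0.04 to 0.58, edgeR adjusted p = 0.744), and it was 0.21 with the slope as a covariate and 0.14 without the 3 libraries. Reads of Myh3 and Myh8 may be shared between these similar genes.

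Mybph, a myosin-binding protein of developing muscle that lies over Adora1 in the table, ranged from 36.1 through 43.0 to 55.4 CPM in M−Z+ and from 34.3 through 40.1 to 41.0 CPM in M−Z− embryos. The M−Z− values were the narrower and the ranges overlapped, with a log2 fold change of −0.18 ± 0.10 (95% interval −0.39 to 0.03, edgeR adjusted p = 0.749). The light chains Myl1 (−0.02 ± 0.10) and Mylpf (−0.14 ± 0.22) and the M-band protein Myom2 (0.08 ± 0.13) had intervals across 0. With the slope as a covariate Mybph was −0.07, Myl1 0.03, Mylpf 0.09 and Myom2 0.04. Mylpf varied most among these 3, from 88.9 to 232 CPM over 12 embryos, and its log2 fold change was −0.02 without M−Z+ embryo 3 and −0.26 without M−Z+ embryo 6.

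**Figure D3:**
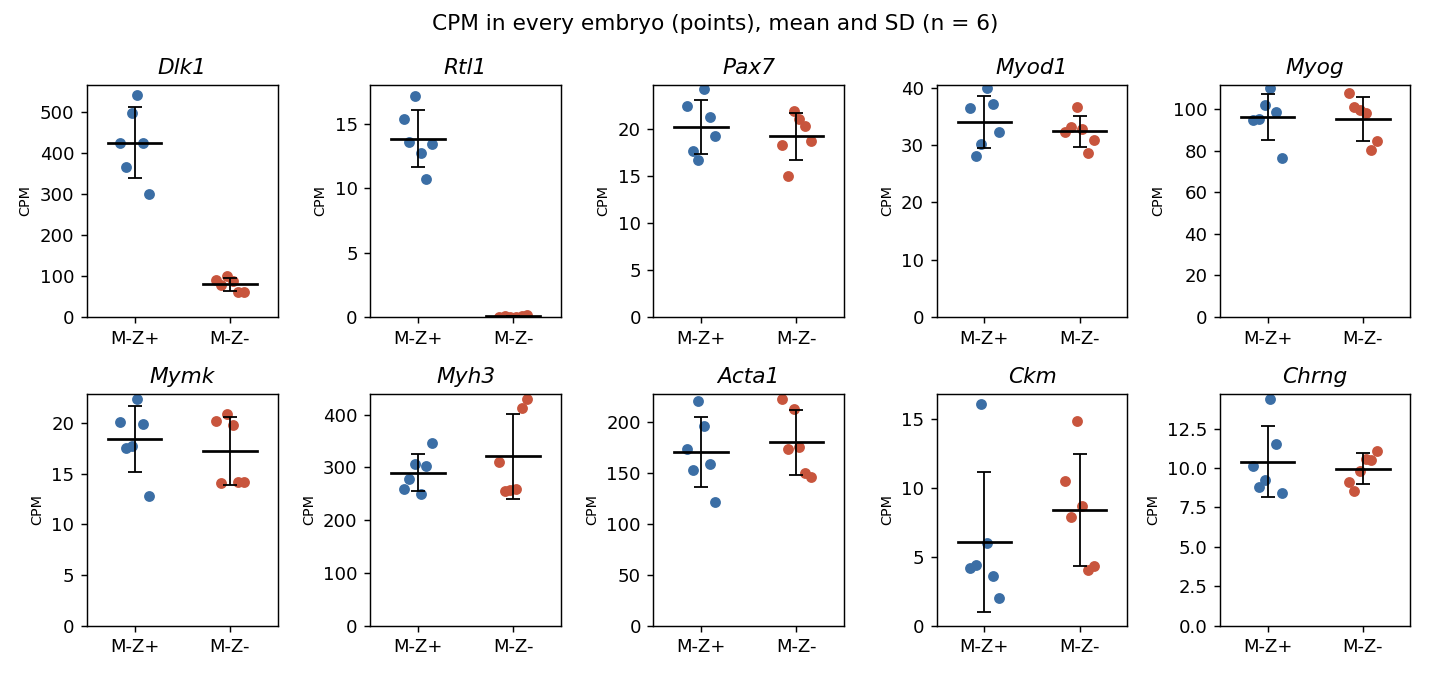
CPM in every embryo for Dlk1, Rtl1 and 8 muscle genes, with the mean and SD of each group (n = 6); axes start at 0. Dlk1 and Rtl1 do not overlap between genotypes, while the 8 muscle genes do.

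Thin filament genes encode actin, the troponins and tropomyosin that regulate it, and nebulin. Acta1 (chr8:123891767-123894736) ranged from 122 through 166 to 221 CPM in M−Z+ and from 146 through 175 to 223 CPM in M−Z− embryos. The top value was M−Z− and the lowest M−Z+, and the log2 fold change was 0.08 ± 0.14 (95% interval −0.23 to 0.38, edgeR adjusted p = 0.891), 0.24 with the slope as a covariate (adjusted p = 0.459), 0.11 without the 3 libraries and −0.01 without M−Z+ embryo 6. Its reads may be shared with Actc1, the cardiac actin also made in fetal muscle, which had 403 ± 65.3 and 399 ± 30.5 CPM (SD, n = 6).

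Among the troponins, Tnnt1 (−0.10 ± 0.11), Tnnt3 (0.04 ± 0.20), Tnni2 (0.0034 ± 0.27), Tnnc2 (−0.12 ± 0.21) and Tnnt2 (0.14 ± 0.09), the last also a heart gene, had intervals across 0. Tnni2 averaged 17.2 CPM in both groups and varied 3.16-fold over the embryos. Tropomyosin Tpm2 (−0.08 ± 0.13) and the thin filament regulator Klhl41 (0.10 ± 0.07) did so too, and Klhl41 was among the steadiest, with a coefficient of variation of 7.3% over 12 embryos. With the slope as a covariate Tnnt1 was 0.03, Tnnt3 0.23, Tnni2 0.25, Tnnc2 0.13, Tnnt2 0.20, Tpm2 0.06 and Klhl41 0.14, all above 0. Tnnc2 was −0.01 without M−Z+ embryo 3 and −0.25 without M−Z+ embryo 6.

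Neb, the giant ruler protein of the thin filament and at an implied length of 28.7 kb the longest member, had the largest fitted difference. It ranged from 18.4 through 42.9 to 106 CPM in M−Z+ and from 43.2 through 50.5 to 146 CPM in M−Z− embryos, and the 3 libraries of the highest slope held 106, 128 and 146 CPM against at most 50.9 CPM elsewhere. The log2 fold change of 0.68 ± 0.42 (95% interval −0.22 to 1.59, edgeR adjusted p = 0.753) was 0.11 with the slope as a covariate and 0.36 without those libraries, and it was 1.08 without M−Z+ embryo 6 and 0.39 without M−Z− embryo 6.

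Genes of the Z disc, intermediate filaments and energy supply comprised Actn2, Des and Ckm, and such genes can also be expressed in heart. Ckm, the muscle creatine kinase (chr7:19411094-19421583), ranged from 2.03 through 4.29 to 16.1 CPM in M−Z+ and from 4.06 through 8.29 to 14.9 CPM in M−Z− embryos. M−Z+ embryo 3 alone held the highest value, and the M−Z− values lay within the M−Z+ range. For Ckm the log2 fold change was 0.48 ± 0.45 (95% interval −0.49 to 1.44, edgeR adjusted p = 0.782). It was 0.88 with the slope as a covariate (adjusted p = 0.496), 0.61 without the 3 libraries, 1.05 without M−Z+ embryo 3 and 0.23 without M−Z− embryo 3.

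Des, the muscle intermediate filament, averaged 61.0 ± 10.4 and 69.7 ± 5.48 CPM (SD, n = 6), with a log2 fold change of 0.19 ± 0.11 (edgeR adjusted p = 0.749). With the slope as a covariate the log2 fold change of Des was 0.33 (adjusted p = 0.0797), and with 2 surrogate variables it was 0.33 (adjusted p = 0.0318), below the limit of 0.5; over the settings tried the adjusted p ran from 0.0318 to 0.985. Actn2, the Z-disc actinin, was the steadiest member, at 98.3 ± 8.24 and 101 ± 5.75 CPM, with a log2 fold change of 0.04 ± 0.07, 0.06 with the slope as a covariate and −0.05 without the 3 libraries.

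Calcium handling showed 4 members with intervals across 0: the release channel Ryr1 (0.18 ± 0.26), its voltage sensor Cacna1s (0.19 ± 0.13), the calcium pump Atp2a1 (−0.04 ± 0.08) and the store protein Casq2 (0.14 ± 0.14), the last also a heart gene. Ryr1 held 55.7, 57.3 and 58.9 CPM in the 3 libraries of the highest slope and at most 40.8 CPM elsewhere. Its log2 fold change was −0.16 with the slope as a covariate, −0.02 without the 3 libraries, 0.03 without M−Z− embryo 6 and 0.36 without M−Z+ embryo 6. Cacna1s was 0.09, Atp2a1 0.04 and Casq2 0.26 with that covariate.

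At the neuromuscular junction, Chrng encodes the fetal subunit of the acetylcholine receptor (chr1:87204657-87212694). It ranged from 8.39 through 9.64 to 14.4 CPM in M−Z+ and from 8.56 through 10.2 to 11.1 CPM in M−Z− embryos. All M−Z− values lay inside the M−Z+ range, with a log2 fold change of −0.06 ± 0.14 (95% interval −0.36 to 0.23, edgeR adjusted p = 0.903). The receptor subunits Chrna1 (0.11 ± 0.12) and Chrnd (−0.04 ± 0.20) and the receptor kinase Musk (0.28 ± 0.22) had intervals across 0. Without the 3 libraries Chrng was −0.20, with 2 surrogate variables 0.13, and with the slope as a covariate Chrng was 0.03, Chrna1 0.23, Chrnd −0.0021 and Musk 0.06. The adult subunit Chrne, outside the 33, was not tested, with no count in M−Z+ and at most 2 in any M−Z− embryo.

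Among 68 further skeletal muscle genes, 65 were tested and 0 were called by edgeR or by DESeq2, while 10, or 15.4%, lay below an unadjusted p of 0.05 against 6.7% of all genes, 8 of them higher in M−Z− embryos. Their median log2 fold change was 0.08, and 44 of 65 lay above 0, where 48.3% of all genes did. No test over the list was made. With the slope as a covariate the median was 0.07, and without the 3 libraries 0.04. The genes below an unadjusted p of 0.05 were then 11, or 16.9%, with the covariate, against 9.84% of all genes. Without the 3 libraries they were 7, or 10.8%, against 7.84% of all genes. The 2 with the largest fold changes were the giant sarcomere protein Ttn (0.61 ± 0.49, adjusted p = 0.763) and the fast myosin Myh2 (0.50 ± 0.21, adjusted p = 0.744). Ttn, another very long gene, averaged 89.9 ± 70.5 and 137 ± 98.1 CPM (SD, n = 6) and held 230, 266 and 261 CPM in the 3 libraries of the highest slope against at most 86.1 CPM elsewhere. With the slope as a covariate the log2 fold change of Ttn was −0.05, and without those libraries 0.25.

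Markers of other tissues were counted beside muscle, because whole embryos differ in makeup. None of 15 heart, 9 smooth muscle, 11 skeletal and tendon, 8 tested neuronal, 6 liver, 3 embryonic globin or 4 adult globin genes was called by edgeR or by DESeq2. At an unadjusted p below 0.05 the counts were 3, 1, 0, 3, 0, 0 and 0 in that order, where 6.7% of all genes lay. With the slope as a covariate they were 3, 2, 3, 4, 0, 0 and 0, against 9.84% of all genes. Without the 3 libraries they were 4, 0, 1, 3, 0, 0 and 0, against 7.84%. Median log2 fold changes were 0.20, 0.04, 0.05, −0.21, −0.21, 0.36 and −0.175. These medians with the slope as a covariate were 0.08, 0.09, 0.15, −0.22, 0.00495, 0.40 and 0.06, so that those of liver and adult globin genes changed sign.

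The 8 neuronal genes all lay below 0, and Mnx1 (−0.43 ± 0.37) had the largest difference. Nefl (−0.24 ± 0.06, edgeR adjusted p = 0.527) and Stmn2 (−0.21 ± 0.06, edgeR adjusted p = 0.664) had groups that did not overlap, as had 0.574% of all genes. The summed CPM of the neuronal list was 1065 to 1427 in M−Z+ and 1018 to 1078 in M−Z− embryos. The largest differences elsewhere were Nppb (−0.53 ± 0.31) and Tbx20 (0.51 ± 0.22) in heart, Lmod1 (0.28 ± 0.18) and Mylk (0.25 ± 0.09) in smooth muscle, and Scx (−0.24 ± 0.14) and Col1a1 (0.20 ± 0.13) in skeleton. Apoa1 (−0.38 ± 0.26) and Alb (−0.30 ± 0.24) in liver, Hbb-bh1 (0.46 ± 0.33) and Hbb-y (0.36 ± 0.26) among embryonic globins, and Hbb-bt (−0.23 ± 0.18) and Hba-a2 (−0.19 ± 0.21) among adult globins complete the lists.

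Within a genotype, Dlk1 was compared with Myog, Myh3 and Acta1 on log2 CPM, 6 relations in all, with two-sided exact permutation p-values. In M−Z+ embryos Dlk1 and Myog gave Pearson r = 0.94 (exact permutation p = 0.00556, Benjamini-Hochberg adjusted 0.0334) and Spearman rho = 0.829 (exact p = 0.0583, adjusted 0.117), and r = 0.806 without the 2 embryos farthest from the Dlk1 median. Dlk1 and Acta1 gave r = 0.933 (exact p = 0.0125, adjusted 0.0375), rho = 0.943 (exact p = 0.0167, adjusted 0.0501) and r = 0.91 without 2 embryos. Myh3 went the other way, with r = −0.648 (exact p = 0.15, adjusted 0.15), rho = −0.6 (exact p = 0.242, adjusted 0.242) and r = 0.494 without 2 embryos.

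In M−Z− embryos r was 0.879 for Myog (exact p = 0.0347, adjusted 0.052), −0.87 for Myh3 (exact p = 0.0444, adjusted 0.0533) and 0.919 for Acta1 (exact p = 0.025, adjusted 0.05), with rho of 0.657 (exact p = 0.175, adjusted 0.242), −0.6 (exact p = 0.242, adjusted 0.242) and 0.943 (exact p = 0.0167, adjusted 0.0501). None was below an adjusted 0.05. Without the 2 embryos farthest from the Dlk1 median, which were M−Z− embryos 5 and 6, r was 0.0257, 0.147 and 0.745, so the relations with Myog and Myh3 rested on those embryos. The lowest Dlk1 values of both genotypes, 300, 61.7 and 60.5 CPM, were those of the 3 libraries of the highest length slope, and the part of the slope in these relations was not tested. Whether the relations differ between genotypes was not tested either.

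Myogenic factors bind the E-box, CANNTG, and prefer CAGCTG. RefSeq promoters on GRCm38.p6 matched 24 of the 33 members. In the 250 bases before the start, CANNTG, which reads alike on both strands and contains CAGCTG, was found in 21 of 24 members and 66.2% of 32851 promoters, and CAGCTG in 14 of 24 members and 13.0% of all. A match describes the letters only. The Myog and Acta1 promoters are shown because both members had Pearson relations with Dlk1 below an adjusted 0.05 in M−Z+ embryos. In M−Z− embryos neither was, and the Myog relation rested on embryos 5 and 6. With CANNTG in capitals, Myog is at chr1:134289754-134290003 on the + strand and Acta1 at chr8:123894776-123895025 on the − strand.
Myog: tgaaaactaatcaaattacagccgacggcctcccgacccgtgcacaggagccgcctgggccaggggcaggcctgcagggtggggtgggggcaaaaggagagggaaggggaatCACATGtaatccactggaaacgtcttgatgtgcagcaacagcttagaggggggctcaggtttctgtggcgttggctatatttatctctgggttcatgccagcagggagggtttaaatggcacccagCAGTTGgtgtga
Acta1: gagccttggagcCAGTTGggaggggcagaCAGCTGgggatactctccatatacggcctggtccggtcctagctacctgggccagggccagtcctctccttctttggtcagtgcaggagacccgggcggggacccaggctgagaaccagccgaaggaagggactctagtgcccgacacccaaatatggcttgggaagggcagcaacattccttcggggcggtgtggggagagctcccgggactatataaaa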

How the data were processed

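RNA-seq of 6 M−Z+ and 6 M−Z− whole embryos was used. The authors deposited raw read counts per gene and FPKM. Counts were tested, and FPKM with the counts gave an implied length for each gene. For some genes this length exceeded the span of the gene, so it is not the exonic length. Dlk1 had 16.8 kb at chr12:109452823-109463336, and Tnni2 had 2.87 kb at chr7:142441808-142444410. The TPM, the length slope and the sets of long and short members rest on the implied length. The submitters' processing notes name HISAT2 2.0.4 and mm10 among tools and builds; the study's methods name another aligner (STAR), an older build and strand-aware featureCounts with overlapping genes allowed. Positions in the table overlapped RefSeq genes on GRCm38 (mm10) for 170 of 170 listed genes. Which counter made it is not stated, so overlapping genes may share reads. Whole-genome bisulfite libraries were not analysed here.

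Genes were filtered with filterByExpr, normalised by TMM and tested with the quasi-likelihood test of edgeR 4.0.16 (R 4.3.3), with Benjamini-Hochberg adjustment over 16026 genes. Calls required a log2 fold change beyond 0.5 together with an adjusted p under 0.05. The method was tested on simulated counts in which 200 genes changed by 2-fold or more. There edgeR recovered 80.9% of the 2-fold changes and made 1 false call. Smaller changes near the log2 limit of 0.5 and differences in length slope were not simulated. Alternatives used DESeq2 1.42.0, sva 3.50.0, other filters, a replicate block, the gene length slope and each embryo left out. TPM were computed from counts and lengths. The members and lists were chosen with earlier results of these data known. Members are named by role; embryo values are given for Dlk1, Rtl1, 8 stage markers, members called or with separate groups, and the 3 lowest unadjusted p; Neb was added after its values were seen. From each other list, called genes and the 2 largest fold changes are named.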

Additional observations from a re-analysis of the deposited data

Results flagged for a closer look

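In 4 of 70 groups of 6 values examined, over the members, Dlk1 and Rtl1, 1 embryo lay far from the rest by Dixon's criterion, and chance flags about 1 in 20 groups, or 3.5 here. Myf6 was 1.75 CPM in M−Z− embryo 1 against at most 0.596 CPM in its group. Myh8 was 78.4 CPM in M−Z+ embryo 3, where the next was 64.3 CPM. Ckm was 16.1 CPM in the same embryo, where the next was 5.99 CPM. Neb was 106 CPM in M−Z+ embryo 6, where the next was 48.4 CPM, and that library was among the 3 of the highest gene length slope. The causes were not tested.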

How the results depend on the processing

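No member, and none of the further skeletal muscle genes, was called at adjusted p with the fold limit in any setting. At unadjusted p with the fold limit the edgeR fit held none of either. DESeq2 held 1 further muscle gene, Myh2, and the slope covariate held the member Ckm and 4 further genes, Cav3, Cacng1, Jsrp1 and Mb; without the 3 libraries there was none. The count of all called genes, 13, became 40 by DESeq2, which tested 24149 genes and gave an adjusted p for 19933. On 16021 genes that had passed the edgeR filter DESeq2 gave 37, an alternative added later. The count was 31 with 2 surrogate variables, 22 with the gene length slope and 247 at unadjusted p with the fold limit. The causes were not tested. At unadjusted p with the fold limit 1 marker of other tissues, Tbx20, passed in the edgeR fit and by DESeq2. With the slope covariate Nppa passed instead, and without the 3 libraries Gata4, Nppa and Nppb. Same-numbered embryos deviated together in 5 of 6 pairs (correlation above 0.1) and not in replicate 2 (−0.00342). In replicates 1, 3, 4, 5 and 6 the correlations were 0.107, 0.303, 0.358, 0.105 and 0.661. What the numbers share was not tested, and the labels do not say that they pair the embryos. The main fit left the embryos unpaired, and with the replicate block 21 genes were called. The median of the members ranged from −0.03 without M−Z+ embryo 6 to 0.11 without M−Z+ embryo 3. Directions held in every setting for 13 of 32 members, and 19 changed sign in some.

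With 2 surrogate variables the log2 fold change was 0.054 for Pax7, 0.047 for Myod1, 0.0453 for Myog, 0.0518 for Mymk, 0.0207 for Myl1, −0.0544 for Myom2, −0.0422 for Tnni2, 0.0209 for Atp2a1, 0.0533 for Chrnd and 0.128 for Chrng. With the gene length slope it was 0.00429 for Myod1, 0.1 for Myog, 0.0896 for Mymk, −0.0451 for Myh3, 0.0317 for Myl1, 0.0853 for Mylpf, 0.032 for Tnnt1, 0.128 for Tnnc2, 0.057 for Tpm2, −0.156 for Ryr1, 0.0393 for Atp2a1 and 0.0323 for Chrng. Without the 3 libraries of the highest slope, a setting chosen after seeing the data, it was 0.00993 for Myog, −0.0546 for Myh3, −0.0494 for Actn2 and −0.0232 for Ryr1. For Tnni2 it was −0.000301 with no filter and −0.00215 when genes needed mean counts of 50 or more. With 1 embryo left out the ranges were −0.0827 to 0.0248 for Myog, −0.0748 to 0.0282 for Myl1, −0.0119 to 0.163 for Acta1, −0.0715 to 0.21 for Tnnt3, −0.128 to 0.236 for Tnni2, −0.00602 to 0.0606 for Actn2, −0.165 to 0.0411 for Chrnd and −0.13 to 0.0522 for Chrng, which all crossed 0. Without a change of sign they were −0.122 to −0.0184 for Pax7, −0.133 to −0.0242 for Myod1, −0.193 to −0.0321 for Mymk, 0.033 to 0.2 for Myh3, −0.259 to −0.0163 for Mylpf, 0.0117 to 0.137 for Myom2, −0.24 to −0.103 for Mybph, −0.183 to −0.0429 for Tnnt1, −0.252 to −0.0143 for Tnnc2, −0.158 to −0.0126 for Tpm2, 0.0495 to 0.117 for Klhl41, 0.116 to 0.257 for Des, 0.0272 to 0.363 for Ryr1, 0.124 to 0.252 for Cacna1s, −0.106 to −0.0102 for Atp2a1, 0.0639 to 0.206 for Casq2, 0.0465 to 0.185 for Chrna1 and 0.167 to 0.357 for Musk. The cause was not tested. The 6 Dlk1 relations kept their direction and side of an adjusted 0.05 on the CPM scale and with DESeq2 size factors. Low counts limit Myf6, Chrnd, Musk and Myf5, the last with 56 to 95 counts in each library. Ckm fell as low as 39 counts.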
